A study of Homo sapiens with 9 samples.

Results

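A group of 9 genes linked to the lateral mesoderm and the amnion, not all of them particular to these tissues, was followed. It was read in 2 lineages derived from human embryonic stem cells and in the undifferentiated cells themselves. The genes were chosen by name as the transcription factor genes HAND1, HAND2, TBX3, ISL1, CDX1, CDX2 and MEIS1 and the cell surface genes GABRP and VTCN1. They are 9 of 21417 gene symbols in the deposited table. All 9 libraries came from the embryonic stem cell line H9, 1 line throughout, so every group shares its genetic background. Mesendoderm, the precursor of mesoderm and endoderm, was taken at day 5 of treatment with BMP4 at 5 ng/ml in mTeSR1 (3 libraries). Neuroectoderm, from which the nervous system forms, was also a day 5 culture (3 libraries). Its medium held 200 nM NOGGIN, which binds BMPs, together with 10 µM SB431542, which blocks receptors of activin and Nodal. Undifferentiated cells (hESC) on Matrigel, in mTeSR1 medium, were the day 0 state (3 libraries). No day 5 culture without these agents was analysed here, so agent and time in culture cannot be told apart. Whether the libraries of one group were separate cultures is not labelled. All p-values therefore reflect only how much these samples vary, part of which may be technical.

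The lateral plate is the outer mesoderm of the embryo, from which heart, limb buds and body wall arise, and the amnion is the thin epithelium that encloses the embryo. Both form where BMP signalling is high, and they share regulators. HAND1, TBX3 and ISL1 act in heart and limb precursors and are also found in the early amnion, so that their transcripts alone do not separate the tissues. CDX factors set posterior identity by acting on HOX genes and, in the mouse, CDX2 is also needed for the trophectoderm.

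RPKM values give reads scaled to transcript length and library size, so levels can be compared between genes. From the steps between low values, each library was estimated to rest on 39.9 to 73.3 M reads, at which depth 3 reads over 1 kb of transcript equal 0.0409 to 0.0752 RPKM (counting error only). On principal component 3, with 12.3% of the variance, the first replicates of mesendoderm and neuroectoderm and hESC replicate 2 stood apart. The labelled cell types were checked against their markers. PAX6, a paired-box factor of the early neural plate, lay at 20.1 to 33.4 RPKM in neuroectoderm, and the primitive streak genes MIXL1 and EOMES at 41.8 to 86.8 and 20.8 to 32.0 RPKM in mesendoderm. The endoderm regulators SOX17 and FOXA2 were at 0.32 RPKM or lower in every mesendoderm library. CER1, a secreted Nodal and BMP antagonist, had 44.6 to 70.9 RPKM. Of 13 definitive endoderm genes in the table, 8 stayed under 0.5 RPKM in every mesendoderm library. Of the 5 tested against hESC, 2 rose, CER1 among them, and 1 fell. The endodermal side of the label was thus not established by these markers.

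The promoters of 4 of the genes are shown because they cover the most abundant member (HAND1), its paralogue that stayed low (HAND2), the member whose mesendoderm libraries differed most among the tested genes (CDX2) and the leading surface gene (GABRP). Each run is the 250 bases before the RefSeq start in build GRCh38.p14, read 5′ to 3′ on the gene's strand. They lie at chr5:154478228-154478477 (minus strand, HAND1), chr4:173530230-173530479 (minus strand, HAND2), chr13:27969316-27969565 (minus strand, CDX2) and chr5:170783475-170783724 (plus strand, GABRP), outside the transcript of the gene they precede. Capitals mark matches, on either strand, to the motifs searched.
HAND1: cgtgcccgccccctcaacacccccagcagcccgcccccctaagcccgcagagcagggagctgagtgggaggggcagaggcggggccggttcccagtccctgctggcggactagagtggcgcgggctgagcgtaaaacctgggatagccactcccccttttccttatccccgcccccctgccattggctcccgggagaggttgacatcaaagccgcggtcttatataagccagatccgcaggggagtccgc
HAND2: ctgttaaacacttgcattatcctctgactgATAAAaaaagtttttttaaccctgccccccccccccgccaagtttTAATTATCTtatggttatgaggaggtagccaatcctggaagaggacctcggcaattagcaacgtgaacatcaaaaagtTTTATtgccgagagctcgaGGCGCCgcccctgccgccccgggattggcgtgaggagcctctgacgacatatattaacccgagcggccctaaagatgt
CDX2: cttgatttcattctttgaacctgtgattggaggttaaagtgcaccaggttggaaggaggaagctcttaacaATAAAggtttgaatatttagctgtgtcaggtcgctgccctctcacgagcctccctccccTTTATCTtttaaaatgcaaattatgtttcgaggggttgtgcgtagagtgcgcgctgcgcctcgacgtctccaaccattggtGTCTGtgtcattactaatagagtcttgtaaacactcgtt
GABRP: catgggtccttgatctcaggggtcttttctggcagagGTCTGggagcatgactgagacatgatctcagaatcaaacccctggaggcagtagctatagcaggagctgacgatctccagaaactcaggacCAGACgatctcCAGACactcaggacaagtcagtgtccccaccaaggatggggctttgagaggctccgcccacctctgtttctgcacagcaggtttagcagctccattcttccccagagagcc
RefSeq windows were found for 7 of the 9 genes. The motif searched for the TATA box was TATAAA, the one for GATA factors was AGATAA and the one for CDX factors was TTTAT. For SMADs activated by BMP the letters were GGCGCC, and the general SMAD box was read as CAGAC. MEIS factors were given by the letters TGACAG, dimers of HAND with E-proteins by the letters CATCTG, and homeodomain factors by the letters TAATTA. The GATA motif was in 3 of the 7 windows (CDX2, HAND2 and ISL1) and in 9.17% of 35116 windows of the same length in the RefSeq table. The CDX motif was in 3 of 7 (CDX2, HAND2 and MEIS1) against 32.7% of all, and the SMAD box in 3 of 7 (CDX2, GABRP and ISL1) against 38.0% of all. The motifs for SMADs activated by BMP and for homeodomain factors were each in HAND2, against 16.4% and 4.35% of all windows. The exact letters searched for the TATA box, MEIS and HAND were in 0 of 7, against 10.7%, 13.03% and 12.2% of all windows. Other forms of a motif were not counted, such as the letters tatataa in the HAND1 window. In HAND2 the matches to the homeodomain and GATA motifs overlap, as do those to the CDX and GATA motifs in CDX2. The HAND1 window holds 67.2% G and C with 16 CpG, that of HAND2 49.6% with 13, that of CDX2 45.2% with 10 and that of GABRP 54.8% with 3, beside medians of 58% and 11 over all windows. These matches describe letters and say nothing of binding.

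Mesendoderm at day 5 with BMP4 was compared with hESC at day 0. Transcripts of HAND1, TBX3, ISL1, CDX1, CDX2, MEIS1, GABRP and VTCN1 rose in mesendoderm, where they averaged 7.25 to 68.7 RPKM, against 0.02 to 0.777 RPKM in hESC. HAND2 was the exception, at 0.897 ± 0.826 RPKM in mesendoderm and 0.0633 ± 0.0306 RPKM in hESC (SD, n = 3 each). Beside these 8 calls, 17.0% of the 14473 tested genes were called higher in mesendoderm, 18.1% lower and 35.1% in either direction. Of the 9 genes, 8 had the mean of at least 0.5 RPKM over all libraries that a test required, 7 of them through mesendoderm alone and MEIS1 through both lineages, so the count of 8 could hardly have been lower and is a description only. Every mesendoderm library lay above every hESC library for all 9 genes, HAND2 included, as for 26.0% of tested genes. Changes are differences of log2(RPKM + 1) ± SE, a scale that understates changes of low genes.

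**Figure D1:**
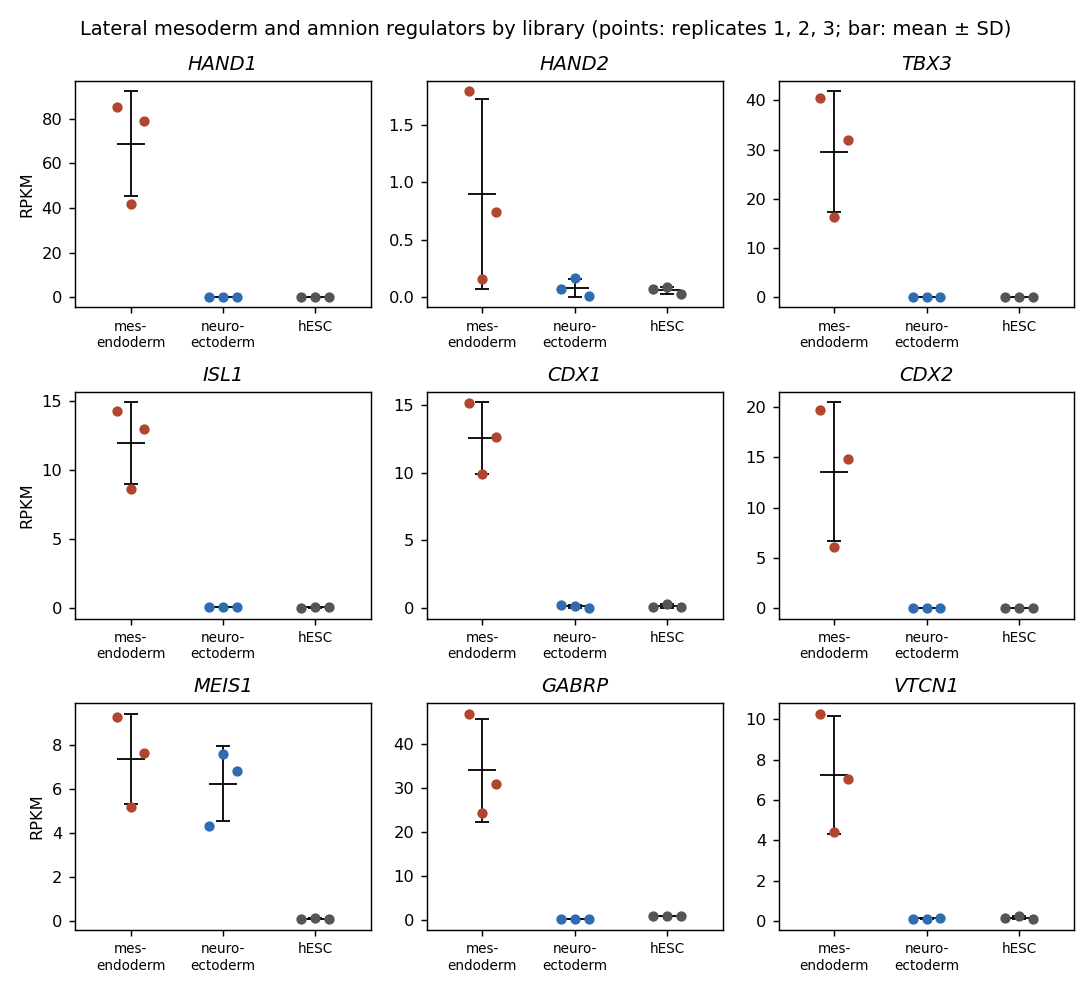
RPKM of the 9 genes in each library, grouped by cell type, with the mean ± SD as a bar (n = 3 libraries a group, each panel with its own axis). The mesendoderm libraries stand above the others for every gene except MEIS1, whose mesendoderm and neuroectoderm libraries overlap, and HAND2, whose mesendoderm replicate 2 falls among the neuroectoderm values.

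HAND1 codes for a basic helix-loop-helix factor of heart, lateral mesoderm and extraembryonic tissue. It had 85.3, 41.9 and 79.1 RPKM in mesendoderm replicates 1, 2 and 3, against 0.04, 0.04 and 0.02 RPKM in neuroectoderm and 0.07, 0.06 and 0.01 RPKM in hESC. Replicate 2 of mesendoderm was the low one, yet it stood far above both other groups. The change against hESC was 5.99 ± 0.23 (limma, adjusted p = 3.26e-07), the largest of the 8 tested members. HAND2, its paralogue in the right ventricle, limb bud and sympathetic neurons, had 1.79, 0.16 and 0.74 RPKM in mesendoderm, against 0.07, 0.09 and 0.03 RPKM in hESC. It lay under the minimum for testing. With no minimum the difference was 0.74 ± 0.25 with an adjusted p of 0.0621 over 21416 genes (unadjusted 0.0177), so it was not called. The neighbouring antisense gene HAND2-AS1, whose reads cannot be told apart from those of HAND2 where they overlap if strand was not used, had 0.14 to 0.26 RPKM in mesendoderm and 0.16 to 0.62 RPKM in hESC.

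TBX3 codes for a T-box repressor of limb, heart conduction system and mammary gland. Its libraries read 40.5, 16.3 and 31.9 RPKM in mesendoderm, against 0.02, 0.04 and 0.03 RPKM in hESC, a change of 4.80 ± 0.27 (limma, adjusted p = 2.37e-06). The second TBX3 transcript in the table gave 40.7, 16.3 and 31.8 RPKM in mesendoderm, and transcripts of 1 gene share reads. ISL1, a LIM homeodomain factor of second heart field precursors, motor neurons and amnion, had 14.2, 8.62 and 12.9 RPKM in mesendoderm, against 0, 0.11 and 0.08 RPKM in hESC (3.58 ± 0.16, limma, adjusted p = 7.07e-07). The groups did not overlap for either gene.

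CDX1 and CDX2 code for homeodomain factors of the posterior embryo and the gut. CDX1 had 15.1, 9.86 and 12.7 RPKM in mesendoderm, against 0.04, 0.31 and 0.03 RPKM in hESC (3.58 ± 0.16, limma, adjusted p = 7.36e-07). CDX2 had 19.7, 6.13 and 14.9 RPKM in mesendoderm, against 0.02, 0.03 and 0.01 RPKM in hESC (3.70 ± 0.32, limma, adjusted p = 3.25e-05). CDX2 was the higher of the pair in mesendoderm replicates 1 and 3 and the lower in replicate 2. The remaining family member CDX4 had 5.26, 3.69 and 4.01 RPKM in mesendoderm, against 3.71, 3.44 and 2.83 RPKM in hESC, and was not called (0.29, adjusted p = 0.219).

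MEIS1, a partner of HOX proteins in limb, blood and nervous system, had 9.29, 5.19 and 7.65 RPKM in mesendoderm, against 0.06, 0.13 and 0.09 RPKM in hESC (2.91 ± 0.22, limma, adjusted p = 1.35e-05). Its antisense gene MEIS1-AS3 stayed at 0.43 RPKM or lower in every library.

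The surface genes rose as well. GABRP codes for the pi subunit of the GABA-A receptor, known from epithelia outside the brain and used as an amnion marker. It had 47.1, 24.3 and 30.9 RPKM in mesendoderm, against 0.75, 0.77 and 0.81 RPKM in hESC (4.25 ± 0.20, limma, adjusted p = 9.13e-07). It was the only member above 0.5 RPKM in hESC. VTCN1, the B7 family inhibitor of T cells also called B7-H4, had 10.3, 4.43 and 7.02 RPKM in mesendoderm, against 0.13, 0.25 and 0.09 RPKM in hESC (2.77 ± 0.22, limma, adjusted p = 2.07e-05). The 5 VTCN1 transcripts in the table lay close together, at 9.36 to 10.3 RPKM in mesendoderm replicate 1.

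**Figure D2:**
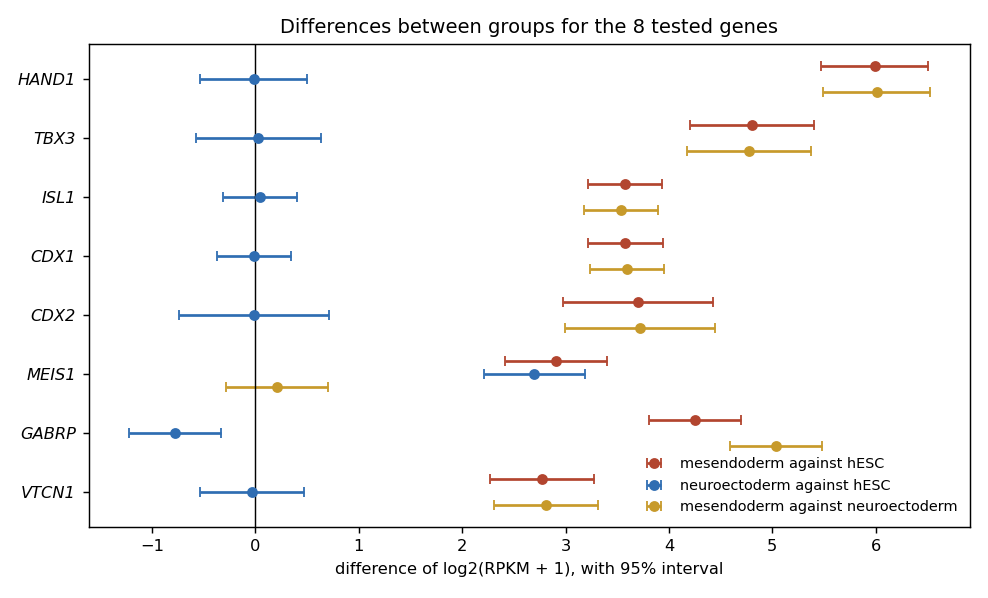
Differences of log2(RPKM + 1) with 95% intervals from limma for the 8 tested genes in the 3 comparisons, the first-named group minus the second. In mesendoderm against hESC all 8 lie between 2.77 and 5.99, and in neuroectoderm against hESC only MEIS1 and GABRP have intervals that leave out 0.

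In mesendoderm the order of mean levels was HAND1 (68.7 ± 23.5 RPKM), GABRP (34.1 ± 11.7), TBX3 (29.6 ± 12.3), CDX2 (13.6 ± 6.89), CDX1 (12.5 ± 2.63), ISL1 (11.9 ± 2.94), MEIS1 (7.38 ± 2.06), VTCN1 (7.25 ± 2.94) and HAND2. Neighbours in this order overlapped between libraries except VTCN1 and HAND2. Within each mesendoderm library, HAND1 was the highest and HAND2 the lowest of the 9.

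Neuroectoderm was compared with hESC to see which of these genes the neural path touches. MEIS1 rose and GABRP fell, and 6 tested members stayed near 0 in both groups. MEIS1 had 4.32, 7.58 and 6.81 RPKM in neuroectoderm, against 0.06, 0.13 and 0.09 RPKM in hESC (2.70 ± 0.22, limma, adjusted p = 1.48e-05). GABRP had 0.05, 0.03 and 0.02 RPKM in neuroectoderm, against 0.75 to 0.81 RPKM in hESC (-0.78 ± 0.20, limma, adjusted p = 0.0108), and the groups did not overlap. Of tested genes 21.9% were called higher, 22.3% lower and 44.2% in either direction, and for 25.4% every neuroectoderm library lay above every hESC library. HAND1, TBX3, ISL1, CDX1, CDX2 and VTCN1 had 0 to 0.20 RPKM in neuroectoderm and 0 to 0.31 RPKM in hESC, and their groups overlapped. Their differences lay between -0.04 and 0.04, with 95% intervals that reached from -0.74 at the lowest to 0.71 at the highest (both CDX2). The SE is shared by the 3 comparisons and takes in the mesendoderm libraries (0.32 for CDX2 in each), and changes within these intervals were not resolved. HAND2 had 0.07, 0.17 and 0.01 RPKM in neuroectoderm and was not called without the minimum (0.02 ± 0.25, adjusted p = 0.960, unadjusted 0.925).

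Mesendoderm was then set against neuroectoderm, the lineages of the same day. The 2 comparisons against hESC share their hESC libraries, and this one shares its libraries with both. HAND1 (6.01 ± 0.23), GABRP (5.03 ± 0.20), TBX3 (4.77 ± 0.27), CDX2 (3.72 ± 0.32), CDX1 (3.59 ± 0.16), ISL1 (3.54 ± 0.16) and VTCN1 (2.81 ± 0.22) were higher in mesendoderm, 7 of the 8 tested, where 24.1% of all tested genes were higher, 24.0% lower and 48.1% either. The adjusted p-values of these 7 (limma) lay between 1.22e-07 and 1.65e-05. MEIS1 had 5.19 to 9.29 RPKM in mesendoderm and 4.32 to 7.58 RPKM in neuroectoderm. It was not called (0.21 ± 0.22, limma, adjusted p = 0.448), and the 95% interval of the difference, -0.28 to 0.70, leaves room for change in either direction. For HAND2 the mesendoderm libraries, at 0.16 to 1.79 RPKM, overlapped those of neuroectoderm, at 0.01 to 0.17 RPKM. Every mesendoderm library lay above every neuroectoderm library for the 7 genes called, as for 29.4% of tested genes.

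The spread among the mesendoderm libraries had the same order in all 9 genes. Replicate 1 was the highest, replicate 3 the next and replicate 2 the lowest in each of them. The highest library exceeded the lowest 1.53-fold for CDX1, 1.65-fold for ISL1, 1.79-fold for MEIS1, 1.94-fold for GABRP, 2.04-fold for HAND1, 2.32-fold for VTCN1, 2.48-fold for TBX3, 3.22-fold for CDX2 and 11.2-fold for HAND2. HAND1 and ISL1 differed little between replicates 1 and 3 (1.08-fold and 1.10-fold), so that their spread came mostly from replicate 2. In GABRP and VTCN1 replicate 1 stood apart from replicate 3 as well (1.52-fold and 1.47-fold). The order was that of 24.7% of all other tested genes, of 41.8% of the 2449 others called higher in mesendoderm than in hESC, and of 52.9% of the 259 others called higher by at least 2 on the log2 scale (a class that with the members held 1.84% of tested genes). The members' order was thus also the most frequent one among strongly induced genes.

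The SD of log2(RPKM + 1) over the 3 mesendoderm libraries had a median of 0.50 over the 8 tested members, beside 0.12 over all tested genes and 0.26 over the 259 strongly induced ones. Each member's SD lay between the 91.5th percentile (CDX1, 0.29) and the 99.8th percentile (CDX2, 0.80) of tested genes of like mesendoderm level, taken within 0.5 on the log2 scale. Mesendoderm replicate 1 was the library set apart on component 3, and replicate 2 was the deepest, with an estimated denominator of 73.3 M reads against 46.1 M and 39.9 M in replicates 1 and 3. Small RNA genes held 58.3%, 52.9% and 55.3% of the summed RPKM in mesendoderm replicates 1, 2 and 3, the same order as the members. The libraries of the other groups set apart on component 3 also had the highest such share of their group, 72.9% in neuroectoderm replicate 1 against 52.5% and 61.2%, and 69.5% in hESC replicate 2 against 58.6% and 62.3%. With small RNA genes left out and the libraries rescaled, the median SD of the members was 0.49. The part of these differences between libraries in the spread was otherwise not tested.

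Pluripotency genes took the reverse order. Of the 12 tested pluripotency genes, 10 were highest in mesendoderm replicate 2 and lowest in replicate 1, as were 27.1% of all other tested genes and 30.7% of the 2620 called lower in mesendoderm. NANOG, a core factor of the pluripotent state, had 7.68, 18.4 and 10.6 RPKM in mesendoderm replicates 1, 2 and 3, against 20.7 to 23.2 RPKM in hESC. SOX2, shared by pluripotent and neural cells, had 1.25, 5.54 and 2.55 RPKM in mesendoderm, against 51.3 to 70.7 RPKM in hESC. GDF3, a TGF-beta family ligand of pluripotent cells, had 3.46, 19.4 and 8.17 RPKM in mesendoderm, against 1.69 to 2.57 RPKM in hESC. The 15 pluripotency genes in the table summed to 453, 562 and 484 RPKM in mesendoderm replicates 1, 2 and 3. The sums were 379 to 395 RPKM in neuroectoderm and 1043 to 1088 RPKM in hESC. None of the 15 was at 0 in every mesendoderm library. LIN28A alone gave 172 to 176 RPKM of each mesendoderm sum and ZFP42 75.4 to 91.8 RPKM. In neuroectoderm against hESC LIN28A was not called (-0.16), while 10 of the 12 tested genes fell. The sums thus do not stand for the list as a whole. LIN28A and ZFP42 were the exceptions to the reverse order. In bulk RNA, fewer cells of a type and less RNA per cell cannot be told apart, and the part of pluripotent cells in the members' spread was not tested.

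**Figure D3:**
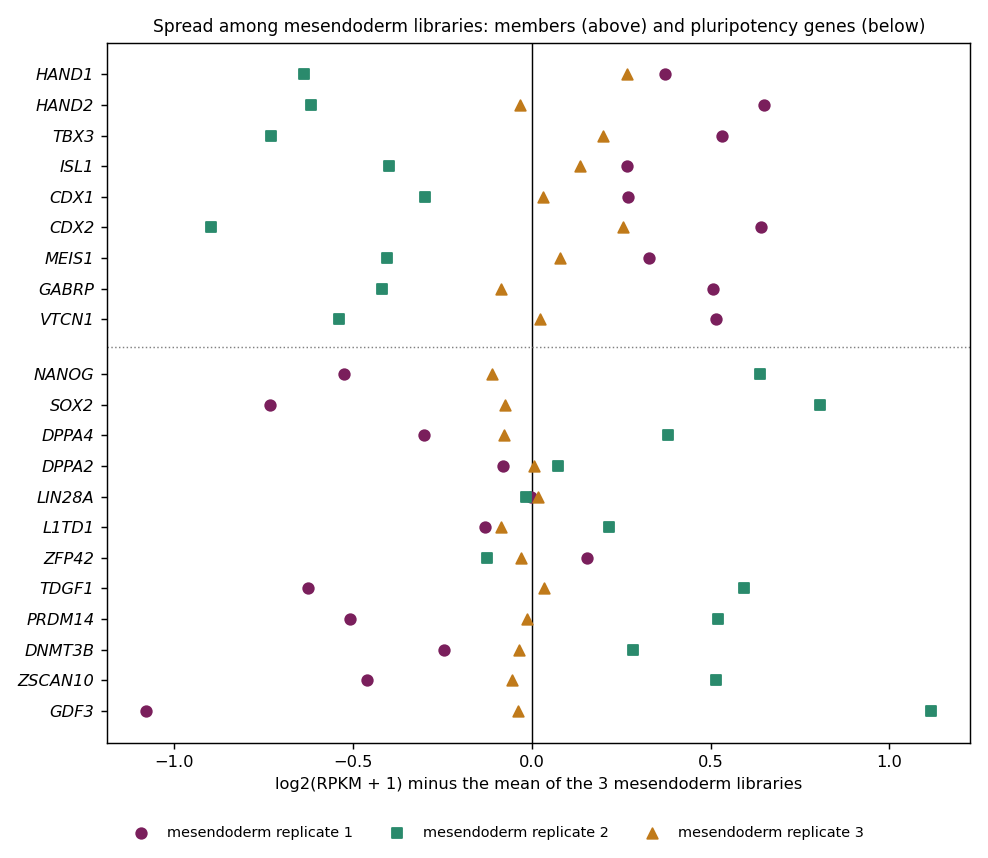
Each mesendoderm library's log2(RPKM + 1) minus the mean of the 3, for the 9 members and the 12 tested pluripotency genes. In every member replicate 1 lies to the right and replicate 2 to the left, and 10 of the pluripotency genes show the reverse.

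Other induced genes showed that the order was not general. The primitive streak genes MIXL1 (41.8, 86.8 and 76.2 RPKM in mesendoderm replicates 1, 2 and 3) and EOMES (20.8, 32.0 and 29.5 RPKM) were lowest where the members were highest. Of 15 tested primitive streak genes 3 took the members' order and 7 the reverse. The amnion genes TFAP2A (14.8, 13.9 and 15.5 RPKM) and HPGD (53.96, 58.2 and 60.9 RPKM) differed little between the libraries. HPGD codes for an enzyme that breaks down prostaglandins. BMP4 itself followed the members, with 143, 51.5 and 104 RPKM. So did HOXB6 (11.6, 1.57 and 7.51 RPKM) and the lateral mesoderm factor FOXF1 (5.97, 0.65 and 4.36 RPKM), which was chosen after its values were seen. In all, 10 of 21 tested amnion genes, 8 of 14 lateral plate and cardiac genes and 5 of 7 posterior genes had the members' order.

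Genes with the profile most like each member over the 9 libraries were found by Pearson's r of log2(RPKM + 1) among 9173 candidates. For members other than MEIS1 and HAND2 r rests mainly on the step between mesendoderm and the 6 other libraries, and all r are given as descriptions. HAND2 in mesendoderm replicate 2 (0.16 RPKM) lay among the other libraries. PPARG, a nuclear receptor of fat cells and placenta, was the most like HAND1 (r = 0.9999) with 9.02, 5.88 and 8.77 RPKM in mesendoderm, followed by the efflux transporter ABCG2 (21.6, 13.7 and 19.3 RPKM). These were also the nearest to ISL1, with ABCG2 first, and each stood beside another gene, RASSF9 for TBX3 and TACC1 for CDX1. CDX2 was most like AMIGO2 (22.52, 8.52 and 17.0 RPKM) and the matrix proteoglycan LUM (14.2, 4.31 and 8.59 RPKM). GABRP paired with RHOBTB3 and PRSS12, and VTCN1 with ACPP, an acid phosphatase, and the prostaglandin transporter SLCO2A1 (13.6, 5.49 and 8.93 RPKM). MEIS1, with its high level in both lineages, was most like SPON1 (r = 0.999), which had 11.6, 7.70 and 9.82 RPKM in mesendoderm, 6.30, 10.0 and 9.17 RPKM in neuroectoderm and 0.79 to 0.91 RPKM in hESC. HAND2 had no match as close, its nearest being PFKFB4 (r = 0.957) and PCDH7 (0.945).

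The tissues and families around the members were described with gene lists, leaving the members out. Counts are of tested genes in mesendoderm against hESC, and the median difference of all 14473 tested genes was -0.02. Of all tested genes 17.0% were called higher, 18.1% lower and 35.1% in either direction, the shares beside which each list is to be read. As with the members, low genes entered the test through the group where they were high. Of 21 amnion genes 21 rose, with a median of 3.42, in a list of 24. HPGD (5.66 ± 0.08), BMP4 (5.53 ± 0.32), the growth factor binding protein IGFBP3 (5.11 ± 0.24) and the homeobox gene MSX2 (5.11 ± 0.29) changed most. In neuroectoderm against hESC 10 of these 21 rose and 3 fell. Against neuroectoderm, 18 were higher in mesendoderm and 3 lower. The 3 were NR2F2 (1.07 against 32.5 RPKM), LRP2 (3.04 against 34.4 RPKM) and TFAP2B (0.39 against 1.75 RPKM). Of 14 lateral plate and cardiac genes 10 rose and 0 fell (median 1.36), or 1, SALL4, fell without neuroectoderm replicate 1 or 2. The list held 25, of which 8 stayed under 0.5 RPKM in every mesendoderm library. Over all alternatives 7 to 13 rose. The rise of TBX20 was lost without any 1 hESC library or mesendoderm replicate 1 or 3 (limma, adjusted p = 0.0541 to 0.0886). The VEGF receptor KDR had 83.0, 86.4 and 80.7 RPKM in mesendoderm, against 20.9 to 23.5 RPKM in hESC (1.86 ± 0.11), and HOXB6 rose by 2.63 ± 0.47. All 12 tested BMP and SMAD target genes rose (median 2.71), led by MSX2, the pseudoreceptor BAMBI (4.48 ± 0.18), MSX1 (4.29 ± 0.43) and the inhibitory SMAD6 (2.82 ± 0.17). MSX2 and BAMBI are counted in the amnion list as well. Other lists share genes too, so their counts are not separate evidence. ID1, ID2, ID3 and ID4 are in the lists of BMP targets and HAND partners. T, EOMES, TBX6, LHX1 and EVX1 are also primitive streak genes. HOXB6, TWIST1 and TBX20 are in the lateral plate list and 1 other, and DLX3 is a BMP target and a trophoblast gene.

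Paralogues and partners were less uniform. In the T-box family 6 of 7 tested genes rose and 1 fell, 4 rising without hESC replicate 1 or 3 or mesendoderm replicate 1 or 3, with EOMES (4.72 ± 0.15), T, the brachyury gene of early mesoderm (4.62 ± 0.11), and TBX6 (1.71 ± 0.26) ahead. TBX2, the nearest paralogue of TBX3, had 0.02 to 0.15 RPKM in mesendoderm and was not tested. MGA was the gene that fell (-0.41 ± 0.13), a call lost without hESC replicate 2 or 3, neuroectoderm replicate 3 or mesendoderm replicate 2 or 3 (adjusted p = 0.0547 to 0.132). Of 13 LIM homeodomain factors and cofactors 4 rose and 2 fell, 3 falling without neuroectoderm replicate 1. LHX1 had 11.8, 3.49 and 12.5 RPKM in mesendoderm, against 0.10 to 0.23 RPKM in hESC (2.99 ± 0.36), and the cofactor LDB2, which binds LIM domains, rose by 1.41 ± 0.13. LMO4 rose by 0.43 ± 0.14, a call lost without any 1 hESC library or without mesendoderm replicate 2 or 3 (adjusted p = 0.0551 to 0.111). Among helix-loop-helix genes listed as partners of HAND factors or of E-proteins 5 of 9 rose and 2 fell, 0 or 1 falling without any 1 hESC or mesendoderm library. The inhibitors ID1 (2.82 ± 0.59), ID2 (2.77 ± 0.25), ID4 (2.65 ± 0.12) and ID3 (1.26 ± 0.21) rose, as did TWIST1 (1.26 ± 0.12). The 2 that fell were the E-proteins TCF3 (-0.75) and TCF12 (-0.45), and the E-protein TCF4 was not called.

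In the list of CDX4 and the posterior genes on which CDX factors act, 5 of 7 tested genes rose and 1 fell, the fall being lost without hESC replicate 1 or 2 or mesendoderm replicate 1. The homeobox gene EVX1 (3.25 ± 0.09) and HOXB6 led it, and 13 of the 28 genes in the table stayed under 0.5 RPKM in every mesendoderm library. Of 9 MEIS and PBX partners 4 rose and 2 fell, 1 without hESC or mesendoderm replicate 3. MEIS3 (1.36 ± 0.32) and TGIF2 (0.56 ± 0.13) rose, and PBX3 fell (-0.37 ± 0.09) with its call lost without hESC replicate 3 (adjusted p = 0.0501) or mesendoderm replicate 3 (0.0575). Among the other GABA-A receptor subunits 1 of 6 rose and 2 fell. All 6 tested subunits were highest in mesendoderm replicate 2, where GABRP was lowest. Of the B7 family only ICOSLG and CD276 passed the minimum. ICOSLG rose (0.56, adjusted p = 0.0143), a call lost without hESC replicate 2 (0.0517). CD276 had 34.8 to 38.4 RPKM in mesendoderm and 42.2 to 49.0 RPKM in hESC (-0.29 ± 0.13, adjusted p = 0.125), and was called lower without neuroectoderm replicate 1 (0.0325).

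**Figure D4:**
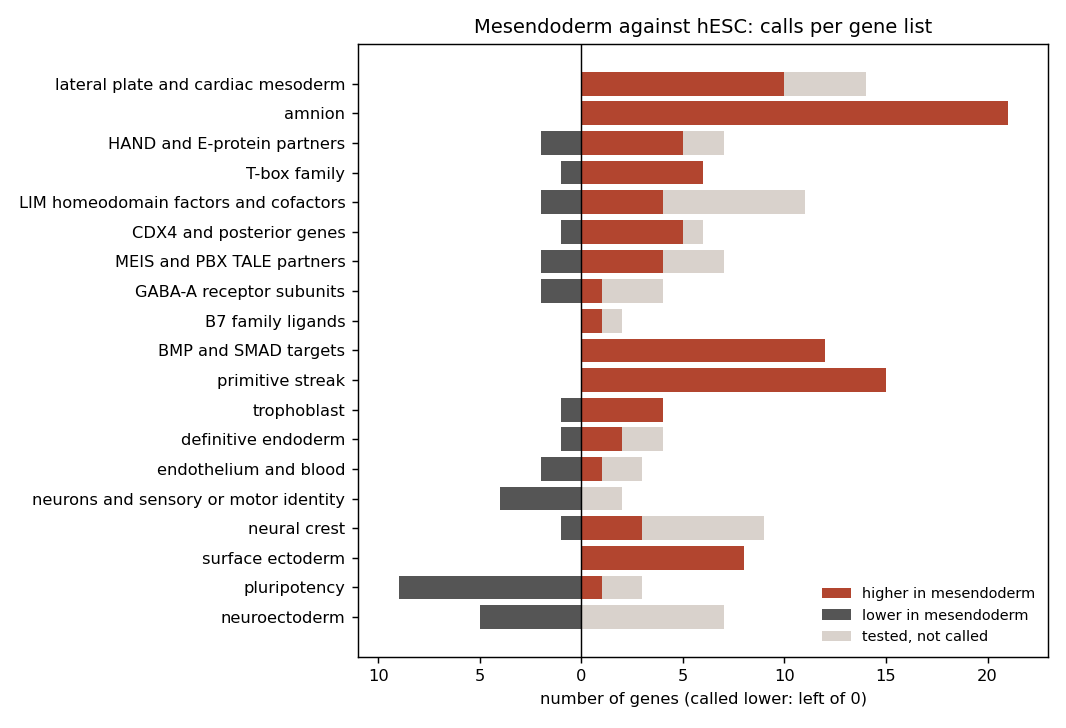
Number of tested genes called higher (right) or lower (left) in mesendoderm than in hESC at an adjusted p under 0.05, per gene list, with tested genes that were not called in pale grey. All 21 amnion, 15 primitive streak, 12 BMP target and 8 surface ectoderm genes that were tested were called higher, as were 17.0% of all tested genes.

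Markers of other cell types the culture could hold were read in the same way. The 15 tested primitive streak genes were all called higher (median 2.99), with MIXL1 (5.79 ± 0.25) and the WNT target SP5 (5.24 ± 0.25) ahead. Without any 1 hESC library, neuroectoderm replicate 3 or mesendoderm replicate 3 the count was 12, the calls of the ligand genes WNT3A, FGF4 and FGF8 being lost (adjusted p = 0.0552 to 0.128), and it was 14 without mesendoderm replicate 1 or 2. All 8 tested surface ectoderm genes rose, among them TFAP2A (3.83 ± 0.12), TFAP2C (3.33 ± 0.16), keratin 8 (KRT8, 2.90 ± 0.26) and GRHL3 (2.88 ± 0.14), and 3 of these genes, TFAP2A, TFAP2C and TP63, are shared with the amnion or trophoblast list. The keratins of stratified epidermis KRT5 and KRT14 stayed at 0.10 RPKM or lower in mesendoderm. Of 5 tested trophoblast genes 4 rose and 1 fell, the fall being that of SDC1 (-0.90 ± 0.15). The list held 22 genes, of which only 13 matched a symbol in the table, and the unmatched ones could not be read. Of the 13 matched genes 8 stayed under 0.5 RPKM in every mesendoderm library. The risers were TP63 (2.31 ± 0.15), an epithelial factor with 5.34, 3.03 and 4.64 RPKM in mesendoderm, against 0.04 to 0.07 RPKM in hESC, the homeobox gene DLX3 (1.62 ± 0.12), the placental growth factor gene PGF (1.497 ± 0.25) and the TEAD cofactor gene VGLL1 (1.43 ± 0.09). The hormone subunit gene CGA had 0.02 to 0.06 RPKM and GCM1, a factor of the syncytiotrophoblast, 0.08 to 0.24 RPKM in mesendoderm. The 13 trophoblast genes summed to 21.9 to 27.0 RPKM in mesendoderm, 13.2 to 16.6 RPKM in neuroectoderm and 21.2 to 24.2 RPKM in hESC. None was at 0 in every mesendoderm library. Most of the sum in hESC was SDC1, which averaged 20.62 RPKM there and 10.58 RPKM in mesendoderm. The similar sums of these 2 groups thus hide the rise of the 4 other tested genes behind the fall of SDC1.

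Of 5 definitive endoderm genes 2 rose, CER1 among them (5.33 ± 0.17), and 1 fell, the fall being lost without hESC replicate 1 or 2 or mesendoderm replicate 2. Of 5 endothelial and blood genes 1 rose, or 2 without mesendoderm replicate 2, and 2 fell, with TEK, an angiopoietin receptor, at -1.34 ± 0.11. Of 6 neuronal genes 0 rose and 4 fell, and the most abundant, TUBB3, was not called (-0.97 ± 0.58, adjusted p = 0.237, and 0.0335 without neuroectoderm replicate 1). Of 10 neural crest genes 3 rose, with SNAI2 at 2.28 ± 0.46, and 1 fell, FOXD3 (-1.78 ± 0.29), the falls numbering 2 without neuroectoderm replicate 1. With 17.0% of all tested genes called higher and 18.1% lower, counts this small are descriptions only. Of 12 neuroectoderm genes 0 rose and 5 fell, or 3 without hESC replicate 1. OTX2 (-2.32 ± 0.11) and SOX11 (-0.54 ± 0.12) fell, and ZNF521 fell (-0.67 ± 0.23, adjusted p = 0.0462) with its call lost without any of 7 single libraries, namely each hESC library, neuroectoderm replicates 2 and 3 and mesendoderm replicates 2 and 3 (0.0575 to 0.121).

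Of 12 pluripotency genes 9 fell and 1 rose. SOX2 (-4.09 ± 0.35), PRDM14 (-2.84 ± 0.22) and ZSCAN10 (-1.67 ± 0.22) fell. GDF3 rose (1.61 ± 0.44, adjusted p = 0.020), a call lost without hESC replicate 2 or 3 or mesendoderm replicate 3 (0.0561 to 0.0627). NANOG fell (-0.88, adjusted p = 0.0213), a call lost without hESC replicate 1 or 3 or mesendoderm replicate 1 or 3 (0.0543 to 0.0742).

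Without the 3 libraries set apart on component 3, 21 amnion, 12 BMP target, 15 primitive streak, 9 lateral plate and cardiac and 4 T-box genes rose, the T-box count against 6 with all libraries. In the same setting 9 pluripotency genes and 4 LIM genes fell, the LIM count against 2 with all libraries, as did 2 neural crest, 1 lateral plate and 1 B7 gene, and risers of the LIM and posterior lists and falls of neuronal genes differed by 1. With no minimum, which admits more genes of a list, 8 posterior and 2 pluripotency genes rose, and 4 definitive endoderm, 4 GABA-A, 5 endothelial and blood and 1 primitive streak gene fell. With a minimum of 1 RPKM, 1 endoderm gene and 0 endothelial and blood genes rose, and 1 GABA-A, 1 endothelial and blood and 0 LIM genes fell.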

How the data were processed

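RNA of 9 H9 libraries was depleted of ribosomal RNA and made into Ion Torrent total RNA libraries, per the labels' protocols. The values are RPKM that the authors computed and deposited for 38759 RefSeq transcripts, rounded to 2 decimals. Per the submitters' processing notes, the tools were TopHat, TopHat2 2.0.13 and Bowtie2 and the build was hg19. How reads were counted, whether strand was used, how reads with several matches were treated and what formed the RPKM denominator are points not given in the sources used here. Sample titles gave the groups.

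For each symbol the transcript of highest mean across the libraries was kept. Those averaging 0.5 RPKM or more (14473 of 21417 symbols) were fitted on log2(RPKM + 1) with limma 3.58.1 in R 4.3.3, with group as the term, all 9 libraries and a mean-variance trend. P-values were adjusted by Benjamini-Hochberg over all tested genes and called under 0.05. The step was tested on simulated data. Deviations of same-numbered libraries from their group means correlated at 0.392, 0.247 and 0.229 between mesendoderm and neuroectoderm. Those of libraries with unlike numbers correlated at -0.371 to 0.241, with replicates 2 and 3 positive across numbers (0.241 and 0.152). Pairs could thus not be told from replicate 1 standing apart in both lineages. No label gives a shared batch, and the main fit used no pairs. Against hESC some same-numbered correlations were negative. No count test was used, since the values are not counts. Reads per library were estimated from the low values of small RNA genes, of which 94.3% to 97.5% of 173 to 242 per library were within 0.1 of a whole read. The RefSeq table of promoters (GRCh38.p14) is of another build than the reads and was used for sequence only.

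The members and the 19 gene lists were chosen with earlier results of these data known. The lists are those the report counts. Named from each list were up to 4 called genes with the largest change in mesendoderm against hESC whose higher group averaged at least 5 RPKM, or else the most abundant, and for each member the 2 most like genes. Alternatives were other pseudocounts (0.1 and 0.5), minima, scalings, transcript sums, variance models, a replicate block and left-out libraries. Genes of lists with other levels beside these were named after their values were seen. Some genes that this rule names are not reported here.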

Additional observations from a re-analysis of the deposited data

How the results depend on the processing

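The number of members called was 8 in mesendoderm against hESC, 2 in neuroectoderm against hESC and 7 in mesendoderm against neuroectoderm under every one of the 20 alternatives. The largest adjusted p of a called member was 0.0369, that of GABRP in neuroectoderm against hESC. Scaling moved the median of all genes by 0.07 at most on the log2 scale. The median SD of the members in mesendoderm ranged from 0.49 to 0.52 over the alternatives that keep every mesendoderm library. Counts of all genes called stayed within 1.5 times.

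Differences that were near 0 and not called changed sign. In neuroectoderm against hESC, quantile normalization gave HAND1 0.0261, CDX1 0.0974, CDX2 0.000747 and VTCN1 0.0902, and a pseudocount of 0.1 gave CDX1 0.00627. Without the 3 libraries set apart CDX1 had 0.0400 and VTCN1 0.0320, and MEIS1 in mesendoderm against neuroectoderm had -0.16 (adjusted p = 0.410). The cause was not tested. With each library left out in turn, the difference in neuroectoderm against hESC ranged from -0.00699 to 0.0475 for TBX3, -0.00232 to 0.0730 for ISL1, -0.0757 to 0.0978 for CDX1 and -0.0774 to 0.0214 for VTCN1.

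Same-numbered libraries of mesendoderm and neuroectoderm deviated together, as did replicates 2 and 3 of these lineages across numbers. Same-numbered libraries of hESC and either lineage correlated at -0.738 to 0.401. With a replicate block, which changed no call of a member, the members called were 8, 2 and 7, and the genes called 4224, 5643 and 6250 in the 3 comparisons, against 5077, 6392 and 6965 without it. As to depth, HAND1 and CDX2 lay under the level of 3 reads over 1 kb in every neuroectoderm and hESC library. At the length of their own transcripts 3 reads equal less, 0.0428 RPKM for HAND1 and 0.0183 RPKM for CDX2 in hESC replicate 1. There they had 0.07 and 0.02 RPKM. Small list counts moved in mesendoderm against hESC: with the block 0 HAND partners and 0 T-box genes fell and 2 neural crest genes did, and with quantile normalization 0 T-box genes and 1 lateral plate gene fell. With small RNA left out 0 endothelial and blood genes rose, and 1 lateral plate, 1 B7 and 2 neural crest genes fell. With only the groups compared 1 lateral plate and 2 neural crest genes fell, with no variance trend or summed transcripts 1 lateral plate gene fell, and with summed transcripts or a pseudocount of 0.1 1 neuroectoderm gene rose.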
